A study of Homo sapiens with 6 samples.

Results

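Aldehyde dehydrogenases (ALDH) are a family of enzymes that oxidize aldehydes to carboxylic acids, with NAD or NADP as the electron acceptor. The genes examined here were ALDH1A1, ALDH1A3, ALDH1B1, ALDH2, ALDH3A1, ALDH3A2, ALDH3B1, ALDH7A1, ALDH9A1 and ALDH18A1. They were found by gene name in the deposited count table and make up 10 of its 19 human ALDH genes and 10 of its 58735 genes in all. The genes were chosen by name, with results of the same comparison in view, so the levels and the differences between the groups count among the values that chose them. These differences are therefore given as a description, and the adjusted p-values only place each gene within the fit over all genes. The 10 genes include the 9 ALDH genes with the highest mean CPM (counts per 1000000 counts of the library, scaled by edgeR's TMM method). ALDH16A1, which is not on the list, had a higher mean CPM than ALDH1A3.

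A549 is a human lung adenocarcinoma cell line. The control group was A549 cells with an empty lentiviral vector, and the IL17D group was A549 cells overexpressing IL17D, a cytokine of the IL-17 family, from the same kind of vector. Each group had 3 libraries. Per the study's methods, the vector backbone carried the human PGK promoter and an IRES-GFP cassette. Whether the cells of a group were a pool or a clone, and whether its libraries came from separate cultures, was not given in the sources used here, so the p-values measure only the spread between these libraries.

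ALDH1A enzymes make retinoic acid from retinal and, with the ALDH3 enzymes, clear aldehydes that form when membrane lipids are oxidized. ALDH2 and ALDH1B1 are mitochondrial and take acetaldehyde. ALDH1A1 and ALDH3A1 are known as abundant enzymes of A549 cells and of other lung carcinoma cells, and ALDH activity is widely used as a marker of stem-like tumor cells. The other members serve particular pathways, such as proline synthesis (ALDH18A1), lysine breakdown (ALDH7A1) and carnitine synthesis (ALDH9A1).

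The libraries held 14319398 to 16521021 counts on genes, and all TMM factors lay between 0.997 and 1.004. IL17D had 1.24 to 2.11 CPM in the control libraries and 1872 to 1952 CPM in the IL17D libraries. The epithelial keratins KRT8 and KRT18 were high in all 6 libraries, whereas KRT19 was at 0.184 to 0.667 CPM and EPCAM at 0.621 to 1.30 CPM. Of the 5 alveolar markers, NKX2-1, SFTPB and SFTPC had at most 0.553 CPM in any library, and ABCA3 was at 79.1 to 87.6 CPM. NAPSA, the fifth, had 0.869 to 2.27 CPM in control and 0.667 to 1.05 CPM in IL17D libraries, which overlapped, with a log2 fold change of -0.87 and an adjusted p of 0.375 in edgeR's test. The leukocyte marker PTPRC had no count in any library, and PECAM1, VWF and CD68 had at most 0.248 CPM. Of the fibroblast and muscle markers on the same list, COL1A1 had 19.2 to 24.2 CPM, ACTA2 had 3.29 to 4.49 CPM and COL3A1 had at most 0.485 CPM. All 10 ALDH genes on the list passed the filter on low counts.

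Promoter sequences were available in the RefSeq table (GRCh38.p14) for 8 of the 10 genes, all but ALDH2 and ALDH3A1. The 250 bases before the start of ALDH1A1, the most abundant member, and of ALDH3B1, the member with the largest log2 fold change in size, are shown 5′ to 3′ because these genes lie at the ends of the list in level and in log2 fold change. The ALDH1A1 window is chr9:72953054-72953303 on the minus strand, of which 3 bases lie in an exon of the gene in GENCODE release 29. The start used is that of RefSeq, and this window lies inside the gene as counted (72900662 to 73080442), not at its end. The ALDH3B1 window is chr11:68008297-68008546 on the plus strand. Capitals mark matches to the motifs searched.
ALDH1A1: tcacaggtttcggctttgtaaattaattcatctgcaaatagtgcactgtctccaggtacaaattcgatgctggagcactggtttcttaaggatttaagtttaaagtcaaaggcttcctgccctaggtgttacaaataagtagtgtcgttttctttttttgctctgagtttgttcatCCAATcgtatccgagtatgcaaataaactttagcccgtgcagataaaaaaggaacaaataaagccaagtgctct
ALDH3B1: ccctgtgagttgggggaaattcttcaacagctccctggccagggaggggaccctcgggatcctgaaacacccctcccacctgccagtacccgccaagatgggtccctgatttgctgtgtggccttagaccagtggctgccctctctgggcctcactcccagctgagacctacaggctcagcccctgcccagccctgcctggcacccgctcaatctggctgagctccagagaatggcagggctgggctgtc

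The motifs, each searched on both strands, were the antioxidant response core TGACNNNGC, the xenobiotic response core GCGTG, the nuclear receptor half-site AGGTCA, the TATA box TATAAA, the GC box GGGCGG and the reversed CCAAT box ATTGG. None of these motifs contains another, and no matches overlapped in the windows shown. The ALDH1A1 window held 1 match, a CCAAT box whose first base lies 74 bases before the start, and the ALDH3B1 window held none. A CCAAT box was found in 4 of the 8 windows of the listed genes and in 32% of all 35116 promoters of the same length. A GC box was found in 4 of the 8 and in 42.6% of all, and GCGTG in 1 of the 8, that of ALDH1A3, and in 32.2% of all. TGACNNNGC, AGGTCA and TATAAA were in none of the 8 windows and in 10.9%, 12.1% and 10.7% of all promoters. These are matches of letters only. Some windows lie in GENCODE exons of the gene itself, with all 250 bases for ALDH1A3 and ALDH9A1 and 199 bases for ALDH7A1. The overlap was 38 bases for ALDH1B1 and 0 for ALDH3A2, ALDH3B1 and ALDH18A1. The GC content of the 8 windows ran from 38.4% in ALDH1A1 to 82.4% in ALDH1A3, against a median of 58% over all promoters.

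The 19 ALDH genes held 0.7414% to 0.7487% of the gene counts in the control libraries and 0.6755% to 0.6926% in the IL17D libraries. Summed over the 10 genes, the level was 7371, 7345 and 7343 CPM in control replicates 1, 2 and 3 and 6711, 6683 and 6845 CPM in IL17D replicates 1, 2 and 3. The groups did not overlap, and the IL17D mean lay 8.25% below the control mean. The 10 genes held 98.7% of the counts of all 19 ALDH genes, and ALDH1A1 and ALDH3A1 alone held 84.5%. Without these 2 genes, the other 8 summed to 1066 ± 4.33 CPM in the controls and to 962 ± 13.4 CPM with IL17D (SD, n = 3 each). Most of this difference of -104.7 CPM came from ALDH3B1 (-70.7 CPM), with -17.4 CPM from ALDH3A2 and -6.105 CPM from ALDH2. ALDH1A3, ALDH1B1, ALDH7A1, ALDH9A1 and ALDH18A1 each differed by 2.94 CPM or less. In the control libraries the sum over the 10 genes varied less (SD 15.8 CPM) than ALDH1A1 (SD 68.3 CPM) or ALDH3A1 (SD 74.4 CPM) on their own. These SDs rest on 3 control libraries, and the counting error of the sum was not computed, so nothing is read from this. Control replicate 3 had the highest ALDH1A1 and the lowest ALDH3A1 of the 3.

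ALDH3B1, ALDH3A1 and ALDH1A1, 3 of the 10 genes, fell in edgeR's quasi-likelihood test, with adjusted p under 0.05 over all 15754 tested genes, and none of the 10 rose. Over all tested genes, 0.908% fell and 0.673% rose by the same criterion, 1.58% together. At an unadjusted p under 0.05 with a log2 fold change over 0.2 in size, 2 of the 10 were lower, ALDH3B1 and ALDH3A1, against 3.43% of all tested genes. The 3 IL17D libraries lay entirely below the 3 control libraries for 4 of the 10 genes, against 8.33% of all tested genes, and entirely above them for none, against 7.48% of all tested genes. The estimate was below 0 for 9 of the 10, against 50.1% of all tested genes, and the median log2 fold change was -0.077, against -0.00044 over all tested genes. Since the list was drawn up with this comparison known, nothing is read from these counts. Calls were more frequent among abundant genes, with 17.4% of the 86 tested genes of at least 1000 CPM called in either direction and 8.81% of the 477 of at least 300 CPM.

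**Figure D1:**
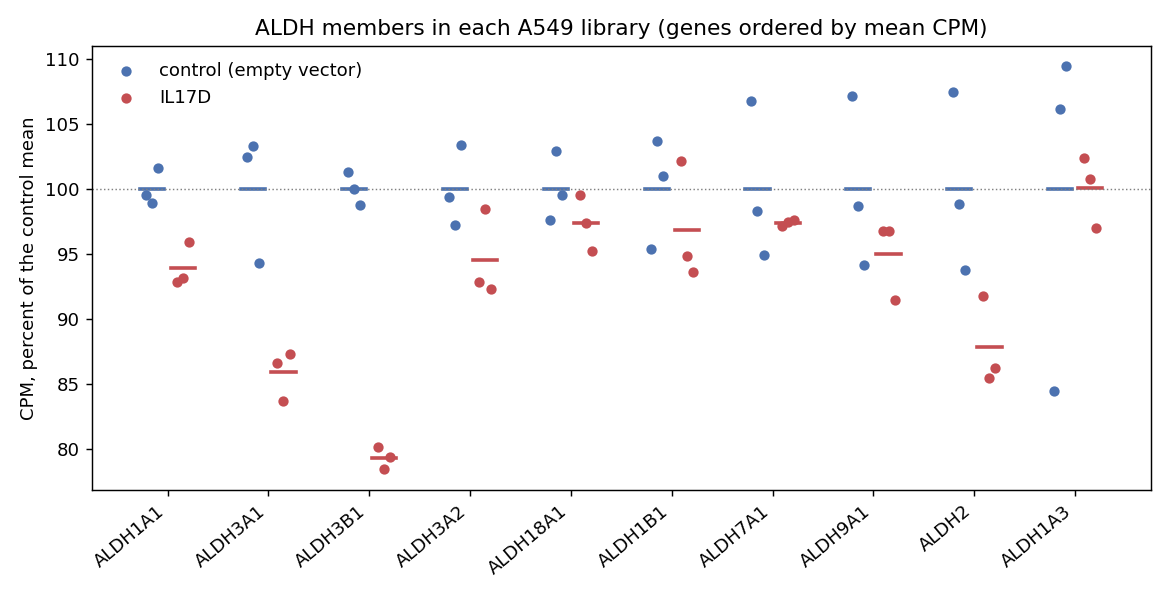
Each point is a library, and the vertical axis gives its CPM as a percent of the control mean of the gene, with bars at the group means and genes ordered by mean CPM. The IL17D points of ALDH3B1 (78.4% to 80.1%), ALDH3A1 (83.7% to 87.3%), ALDH2 (85.5% to 91.7%) and ALDH1A1 (92.8% to 95.9%) lie below all control points, and those of the other 6 genes overlap them.

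ALDH3B1 encodes an enzyme of the ALDH3 class that takes aldehydes derived from lipids and is anchored to membranes. It lies on chromosome 11 (ENSG00000006534, GRCh38, 68008578 to 68029282). Its level was 346, 342 and 337 CPM in control replicates 1, 2 and 3 and 274, 268 and 271 CPM in IL17D replicates 1, 2 and 3. The groups were far apart relative to their spread, which was 1.27% of the mean in control cells and 1.08% in IL17D cells, no larger than the 1.44% that counting error alone gives. The log2 fold change was -0.33 (standard error 0.034, 95% interval -0.40 to -0.27), with an adjusted p of 3.1e-08 in edgeR's test. By p it stood at rank 7 among all tested genes and rank 4 among the genes that were lower. Of the 31-base stretches in its transcripts, 7% also occur in other genes, most often in ALDH3B2, which had at most 2 counts in any library.

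ALDH3A1 encodes a cytosolic enzyme known from the cornea, the stomach and lung carcinoma, where it clears aldehydes from lipid peroxidation. It lies on chromosome 17 (ENSG00000108602, 19737984 to 19748943). Its level was 1542, 1555 and 1420 CPM in control replicates 1, 2 and 3 and 1305, 1260 and 1315 CPM in IL17D replicates 1, 2 and 3. Control replicate 3 was the lowest of its group and still above all IL17D libraries. The log2 fold change was -0.22 (standard error 0.030, 95% interval -0.28 to -0.16), with an adjusted p of 1.1e-05 in edgeR's test. When single libraries were left out it ran from -0.26, without control replicate 3, to -0.20, without control replicate 2. The antisense gene AC005722.3 overlaps 2.5% of its exon sequence and had 303 counts over the 6 libraries, against 131612 for ALDH3A1. Whether counting used the strand was not given in the sources used here.

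ALDH1A1, a cytosolic retinal dehydrogenase, was the most abundant member and the gene with rank 10 by mean CPM among all tested genes. It lies on chromosome 9 (ENSG00000165092, 72900662 to 73080442). Its level was 4758, 4727 and 4857 CPM in control replicates 1, 2 and 3 and 4437, 4453 and 4584 CPM in IL17D replicates 1, 2 and 3. The groups did not overlap, but the difference was small beside those of ALDH3B1 and ALDH3A1 on the log2 scale. The log2 fold change was -0.090 (standard error 0.023, 95% interval -0.14 to -0.044), with an adjusted p of 0.030 in edgeR's test. In CPM, the mean was lower by more than that of any other member, with a difference of -289 CPM against -212 for ALDH3A1 and -70.7 for ALDH3B1. The call was lost when single libraries were left out, with an adjusted p of 0.073 without control replicate 3, 0.227 without IL17D replicate 1, 0.146 without IL17D replicate 2 and 0.073 without IL17D replicate 3. It was also lost with the replicate number as a block (adjusted p = 0.072 in edgeR's test). None of the 31-base stretches of its transcripts occur in another gene.

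The counts of ALDH3A1 per count of ALDH1A1, which do not depend on scaling, were 0.324, 0.329 and 0.292 in control replicates 1, 2 and 3 and 0.294, 0.283 and 0.287 in IL17D replicates 1, 2 and 3. Control replicate 3 lay within the range of the IL17D libraries, so this ratio did not separate the groups.

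The remaining ALDH1 genes on the list did not pass the test. ALDH1A3, another retinal dehydrogenase (chromosome 15, 100877714 to 100916626), had 22.2, 27.9 and 28.7 CPM in control replicates 1, 2 and 3 and 26.9, 26.5 and 25.5 CPM in IL17D replicates 1, 2 and 3. The IL17D libraries lay within the range of the control libraries, and control replicate 1 was the lowest of all. Its log2 fold change was 0.0031 (95% interval -0.18 to 0.18), and its control libraries varied most among the members, by 13.6% of their mean against 4.93% from counting error. The antisense gene AC015712.2 overlaps 27.5% of its exon sequence and had 407 counts over the 6 libraries, against 2471 for ALDH1A3. ALDH1B1, the mitochondrial enzyme (chromosome 9, 38392664 to 38398661), had 82.0, 89.1 and 86.8 CPM in control replicates 1, 2 and 3 and 87.8, 81.5 and 80.4 CPM in IL17D replicates 1, 2 and 3. The groups overlapped, with a log2 fold change of -0.044 (95% interval -0.15 to 0.059).

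ALDH2, the mitochondrial enzyme that clears acetaldehyde from ethanol (chromosome 12, 111766887 to 111817529), had 53.9, 49.5 and 47.0 CPM in control replicates 1, 2 and 3 and 46.0, 42.9 and 43.2 CPM in IL17D replicates 1, 2 and 3. All IL17D libraries lay below all control libraries, but the lowest control library and the highest IL17D library were closer to each other than the SD within either group (3.48 and 1.71 CPM). Its log2 fold change was -0.19 (standard error 0.064, 95% interval -0.32 to -0.056), and it did not pass after adjustment (adjusted p = 0.179 in edgeR's test). The estimate was negative in all 13 other settings tried, with an adjusted p between 0.075 and 0.558 in edgeR, DESeq2 and limma. Of its 31-base stretches, 20.3% occur in other genes, most often in AC002996.1, which had no count in any library.

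ALDH3A2, the microsomal enzyme that oxidizes long-chain fatty aldehydes (chromosome 17, 19648136 to 19677598), had 316, 310 and 329 CPM in control replicates 1, 2 and 3 and 296, 313 and 294 CPM in IL17D replicates 1, 2 and 3. IL17D replicate 2 lay inside the control range, so the groups overlapped. The log2 fold change was -0.081 (95% interval -0.15 to -0.0082), and it did not pass after adjustment (adjusted p = 0.364 in edgeR's test). ALDH3A2 and ALDH3B1 had nearly the same counts in control cells, so their ratio showed how the genes parted. The counts of ALDH3B1 per count of ALDH3A2 were 1.09, 1.10 and 1.02 in control replicates 1, 2 and 3 and 0.926, 0.855 and 0.922 in IL17D replicates 1, 2 and 3. This ratio, which scaling cannot change, did not overlap between the groups.

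The members with roles in amino acid and carnitine metabolism differed little. ALDH18A1, which makes pyrroline-5-carboxylate on the way to proline (chromosome 10, 95605929 to 95656706), had 106, 112 and 108 CPM in control replicates 1, 2 and 3 and 108, 106 and 104 CPM in IL17D replicates 1, 2 and 3. ALDH7A1, of lysine breakdown (chromosome 5, 126531200 to 126595418), had 82.0, 75.5 and 72.9 CPM in control replicates and 74.6, 74.9 and 75.0 CPM in IL17D replicates. ALDH9A1, of carnitine synthesis (chromosome 1, 165662216 to 165698863), had 62.8, 57.8 and 55.2 CPM in control replicates and 56.7, 56.7 and 53.6 CPM in IL17D replicates. The groups overlapped for all 3 genes. The log2 fold changes were -0.037 for ALDH18A1 (95% interval -0.13 to 0.054), -0.039 for ALDH7A1 (95% interval -0.15 to 0.068) and -0.074 for ALDH9A1 (95% interval -0.19 to 0.047). A difference as large as that of ALDH3B1 lay outside each of these intervals.

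**Figure D2:**
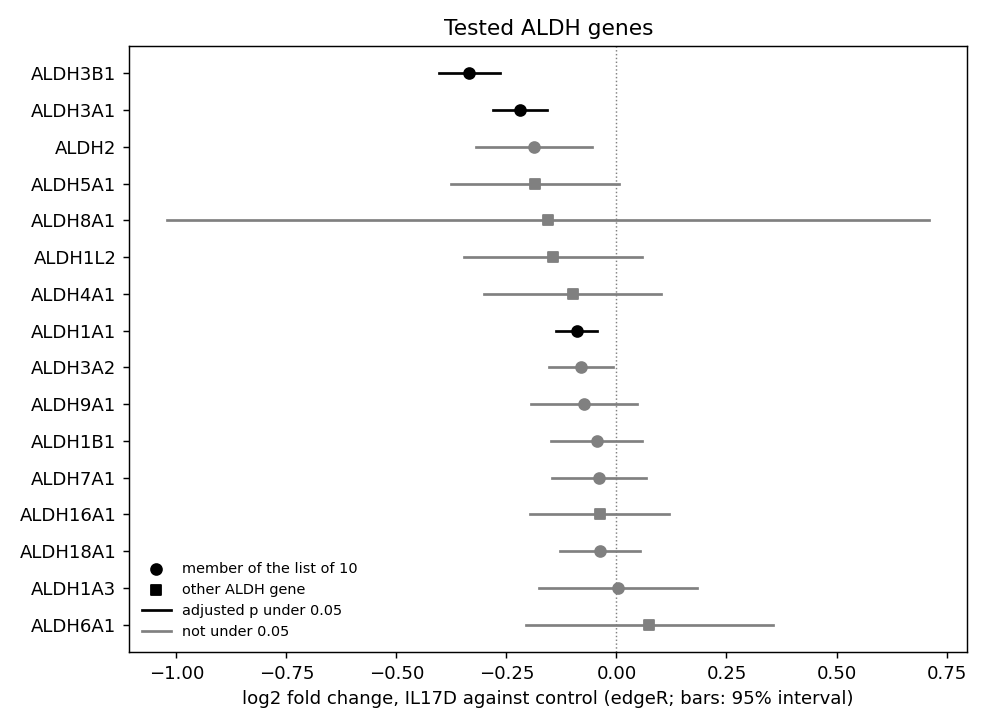
The log2 fold change of each tested ALDH gene (horizontal axis, IL17D against control, bars for the 95% interval) is shown with black marks for genes that passed edgeR's test (adjusted p under 0.05) and circles for the 10 listed genes. ALDH3B1 (-0.33), ALDH3A1 (-0.22) and ALDH1A1 (-0.090) are black, and the interval of ALDH8A1 is the widest (-1.02 to 0.71).

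The other 9 ALDH genes of the table had at most 35.4 CPM in any library, the value of ALDH16A1 in control replicate 1. Of these, 6 passed the filter on low counts and none passed edgeR's test, whether p under 0.05 was adjusted or not, and none passed DESeq2 or limma voom after adjustment. Their median log2 fold change was -0.12, with 5 lower and 1 higher. ALDH5A1, which breaks down the product of GABA, had 20.5, 20.3 and 21.8 CPM in control replicates 1, 2 and 3 and 17.2, 17.7 and 20.2 CPM in IL17D replicates, with a log2 fold change of -0.19 (95% interval -0.38 to 0.0049). ALDH1L2, the mitochondrial formyltetrahydrofolate dehydrogenase, had 16.3, 18.9 and 16.9 CPM in control replicates and 16.1, 15.4 and 15.6 CPM in IL17D replicates. For both genes all IL17D libraries lay below all control libraries, as for 8.33% of all tested genes. ALDH1L2 shares 1.7% of its exon sequence with C12orf45 on the opposite strand, which had 3360 counts over the 6 libraries against 1552 for ALDH1L2. ALDH4A1 of proline breakdown, ALDH6A1 of valine breakdown, ALDH16A1 and ALDH8A1 had log2 fold changes of -0.099, 0.075, -0.038 and -0.15, and their groups overlapped. AL080251.1, which had no count, shares 41.1% of the exon sequence of ALDH4A1.

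ALDH1A2, ALDH1L1 and ALDH3B2 were too low to test. ALDH1A2, the retinal dehydrogenase of the embryo, had 3 counts in control replicate 1, none in the other control libraries, and 4, 2 and 4 counts in IL17D replicates 1, 2 and 3. ALDH1L1 had 3 counts in control replicate 1 and 0 elsewhere, and ALDH3B2 had at most 2 counts in a library. With a count of 0 a level of 3 counts is still possible, or 0.182 to 0.210 CPM by library, a limit for counting error only.

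Between genes, levels can be compared only per length of the transcript. Per kilobase of merged exons, the gene length given in the deposited table, ALDH1A1 had 1678 ± 24.0 CPM per kb (SD, n = 3) in control cells and ALDH3A1 had 384 ± 18.98. ALDH3B1 (51.5) and ALDH3A2 (49.3) followed, then ALDH18A1 (28.9), ALDH1B1 (27.2), ALDH9A1 (17.7), ALDH2 (5.16), ALDH1A3 (4.55) and ALDH7A1 (4.28), all as control means in CPM per kb. The control libraries overlapped between neighbours in this order for ALDH3B1 and ALDH3A2, ALDH18A1 and ALDH1B1, ALDH2 and ALDH1A3, and ALDH1A3 and ALDH7A1. The other neighbours did not overlap. Of the ALDH genes not on the list, ALDH16A1 (7.01) stood between ALDH9A1 and ALDH2, and ALDH4A1 (5.12) between ALDH2 and ALDH1A3.

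In IL17D cells ALDH3B1 had 40.9 ± 0.440 CPM per kb (SD, n = 3) and ALDH3A2 46.6 ± 1.67, and all ALDH3A2 libraries lay above all ALDH3B1 libraries. In IL17D cells the order of these genes depended on the length used. Per kilobase of the longest coding transcript, ALDH3B1 (122.6) stood above ALDH3A2 (81.0) in control cells and remained above it in IL17D cells (97.2 against 76.6). ALDH7A1, whose merged exons from 37 transcripts sum to 17970 bases, rose from the last of the 10 places to the eighth, at 15.5 CPM per kb of its longest coding transcript, which has 4964 bases. ALDH2 then took the last place, at 5.24. The ranks of the other 8 members by control mean were the same with both lengths.

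**Figure D3:**
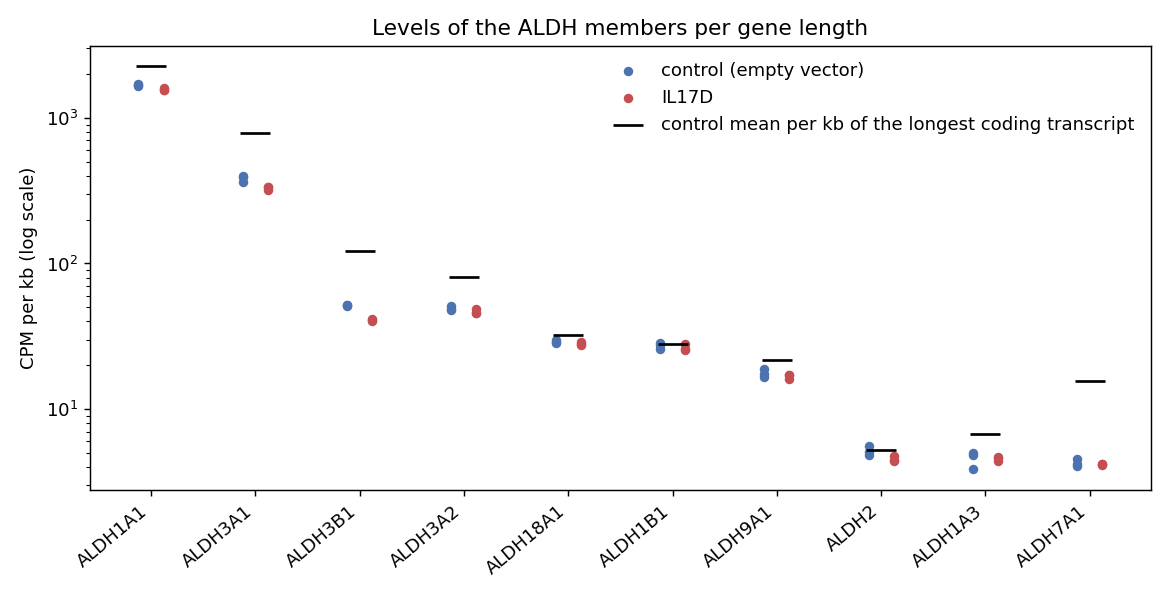
Points give CPM per kb of merged exons (vertical log axis) in each library for the 10 members, and black bars the control mean per kb of the longest coding transcript. ALDH1A1 (1678 in control cells) lies above ALDH3A1 (384), and ALDH7A1 shows the largest gap between the lengths (4.28 against 15.5).

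Likeness to ALDH1A1, the member with the highest level per length, was taken as Pearson's r of log2 CPM over the 6 libraries, among 9737 other tested genes of at least 10 CPM. The most alike were C5 (0.993), ATP9B (0.988), B2M (0.980), BOLA1 (0.980) and AGR2 (0.978). The 6 points include the difference between the groups, and with so few libraries these values only describe the pattern.

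Genes of the reactions next to the ALDH enzymes were taken from 6 hand-written lists. In the list of retinoid metabolism and response, the pathway that ALDH1A enzymes feed, 1 of 20 tested genes rose, none fell, and the median log2 fold change was -0.028. The gene that rose was TGM2, a transglutaminase induced by retinoic acid in many cells, with 470, 482 and 465 CPM in control replicates 1, 2 and 3 and 541, 542 and 544 CPM in IL17D replicates. Its log2 fold change was 0.20 (standard error 0.031, adjusted p = 8.8e-05 in edgeR's test), and it passed in every setting tried. An unadjusted p under 0.05 was found for 5 genes of the list. Besides TGM2 these were CYP26B1, which degrades retinoic acid (0.22), RDH13 (0.29), DHRS3, which reduces retinal (-0.20), and STRA6, a receptor for retinol-binding protein (-0.16), given with their log2 fold changes and named after their values were seen. The receptors RARA, RARB and RARG were close to 0, at -0.030, 0.011 and 0.043.

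In 4 lists no gene passed at an adjusted p under 0.05 in edgeR, DESeq2 or limma voom. Among 9 tested alcohol dehydrogenases, aldehyde oxidase and carbonyl reductases, 2 had an unadjusted p under 0.05 in edgeR's test, namely catalase (CAT, -0.16), which can oxidize ethanol, and CBR3 (-0.43), both as log2 fold changes. Of 7 tested genes of proline metabolism, the pathway that ALDH18A1 feeds, 1 had an unadjusted p under 0.05 in edgeR's test, and 5 had estimates below 0 and 2 above.

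Of 14 tested genes around fatty aldehydes and sphingosine 1-phosphate, SPHK1, a sphingosine kinase, had a log2 fold change of 0.31 and SGPL1, the lyase that yields a fatty aldehyde for ALDH3A2, of -0.093. SPHK1 alone had an unadjusted p under 0.05 (adjusted p = 0.211 in edgeR's test). Of 9 tested genes of lysine, choline and carnitine metabolism, SHMT2 (-0.095) and GCDH (-0.19) had the smallest p, and SHMT2 alone had an unadjusted p under 0.05. The medians of these 4 lists, in the order given, were -0.028, -0.019, 0.037 and 0.0041, against -0.00044 over all tested genes.

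The list of targets of NRF2, the transcription factor of the oxidative stress response to which ALDH3A1 and ALDH1A1 are known to respond, had 17 of 20 estimates below 0. Like the other lists it was written with results of these data known. Of its 20 tested genes, 5 fell, none rose, 15 did not pass, and the median log2 fold change was -0.091. Over all tested genes 0.908% fell and 50.1% had estimates below 0, and of those with at least 100 CPM and at least 1000 CPM, 2.95% and 12.8% fell. ABCC3, a drug transporter, fell by 0.25 on the log2 scale, with 589, 580 and 579 CPM in control replicates and 491, 482 and 496 CPM in IL17D replicates. The transketolase gene TKT fell by 0.12, the ferritin light chain gene FTL by 0.11, and UGDH, which makes UDP-glucuronic acid, by 0.13. The adjusted p-values in edgeR's test were 1.2e-06 for ABCC3, 0.0049 for TKT, 0.017 for FTL and 0.028 for UGDH. NQO1 and TXNRD1, also targets of NRF2, had log2 fold changes of 0.013 and 0.0057. The calls of FTL and UGDH were lost without control replicate 3, without IL17D replicate 1 and without IL17D replicate 3, and that of UGDH also without control replicate 2, with adjusted p-values between 0.097 and 0.202. Of the 4 tested markers of epithelial cells, all with estimates below 0, CDH1 alone fell, by 0.28 on the log2 scale (adjusted p = 0.031 in edgeR's test, with a range of 0.0088 to 0.269 over all settings), and KRT8 had 7505 to 7764 CPM in control and 7187 to 7422 CPM in IL17D libraries. The part of NRF2 or of these markers in the differences of the ALDH genes was not tested.

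**Figure D4:**
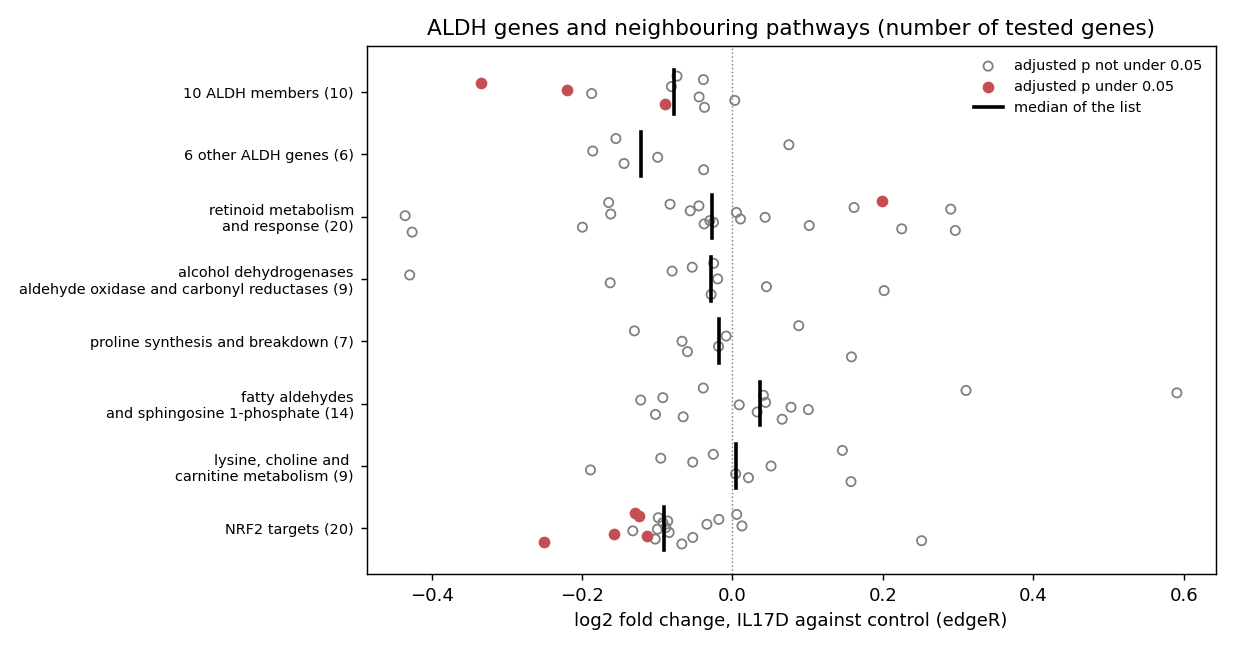
Each point is a tested gene placed by its log2 fold change (horizontal axis), by list, with filled points for genes that passed edgeR's test (adjusted p under 0.05) and black bars at the medians. The medians of the 10 ALDH genes (-0.077), the 6 other ALDH genes (-0.12) and the NRF2 targets (-0.091) lie below 0. Those of the retinoid (-0.028), alcohol dehydrogenase (-0.028) and proline (-0.019) lists also lie below 0. The medians of the fatty aldehyde (0.037) and lysine (0.0041) lists lie above 0. TGM2 (0.20) is the filled point on the side of higher values.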

How the data were processed

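RNA-seq of 6 A549 libraries was analysed. The authors deposited a table of raw read counts per gene, with no normalization. The submitters' processing notes name Bowtie2 and hg38, and the counting tool and its handling of strand were not given in the sources used here. The gene coordinates match GENCODE release 29 for 58724 of 58735 genes, and no per-sample column was left out. Groups were taken from the sample titles.

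Genes were kept by edgeR's filterByExpr, scaled by TMM and compared with edgeR's quasi-likelihood test (edgeR 4.0.16, R 4.3.3), without covariates. P-values are two-sided, with Benjamini-Hochberg adjustment over 15754 genes, and intervals are 95% intervals from the same fit. DESeq2 1.42.0 and limma 3.58.1 were alternatives, beside other scalings and filters, a block for the replicate number, and fits with a library left out. The steps were tested on simulated counts. Libraries of a group differed by more than counting error (chi-square per degree of freedom 2.15 to 3.18), so none was a copy of another. Whether they came from separate cultures cannot be told from these values.

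All 10 listed and 9 other ALDH genes were named, then IL17D, markers of cell types, the genes of each pathway list at an adjusted p under 0.05 or otherwise the 2 with the smallest p, and the 5 most like ALDH1A1. Some genes of the pathway lists that this rule names are counted but not reported here by name. The members and lists were chosen with earlier results of these data known. Sequence shared between genes was counted as 31-base stretches of GENCODE transcripts.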

Additional observations from a re-analysis of the deposited data

How the results depend on the processing

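ALDH3B1 and ALDH3A1 were called lower in all 13 other settings, with log2 fold changes of -0.34 to -0.32 and -0.26 to -0.20. Of the 10 listed genes, 3 were called lower in every setting but the replicate block and the fits without control replicate 3 or without IL17D replicate 1, 2 or 3, where the number was 2 because ALDH1A1 was not called. Its log2 fold change lay between -0.10 and -0.078. No listed gene was called higher and no other ALDH gene was called in any setting. The sign of ALDH1A3, ALDH7A1, ALDH8A1 and ALDH16A1, none of them called, was not the same in all settings. Leaving out single libraries gave 69 to 129 genes called higher and 76 to 138 called lower among all tested genes, against 106 and 143, and 1 to 2 higher and 3 to 6 lower among the pathway lists, against 1 and 5. Among all tested genes, 69 were called higher without IL17D replicate 3, and 95, 79 and 76 lower without control replicate 2, IL17D replicate 1 and IL17D replicate 3. Among the lists, 3 were called lower without control replicate 3, IL17D replicate 1 or IL17D replicate 3, and 2 higher without control replicate 3. Fewer libraries were compared in these fits.

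The deviations from the group means of libraries with the same replicate number correlated at 0.069, -0.11 and -0.067. For libraries with different numbers the values ran from -0.144 to 0.199, the highest between control replicate 3 and IL17D replicate 2. With 3 libraries per group these values only describe the libraries, and whether libraries of the 2 groups shared a batch was not tested. With the number as a replicate block, 115 genes were called higher and 157 lower, and the fold change of ALDH1A1 was -0.090. The median of all genes moved by at most 0.003 (log2) between scalings. The lengths of the longest coding transcripts, an alternative chosen after the data were seen, changed the rank by control mean of 2 of the 10 genes, and in IL17D cells also the order of ALDH3B1 and ALDH3A2. The depth limits ALDH8A1, with 10 to 17 counts in a library, and the 3 ALDH genes that were not tested.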
